A study of Homo sapiens with 22 samples.

Results

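The 10 genes described here encode the MAP kinase phosphatases DUSP1, DUSP2, DUSP4, DUSP5, DUSP6, DUSP7, DUSP8, DUSP9, DUSP10 and DUSP16. They were taken by gene symbol from the 58735 genes of a count table. No cutoff on a measured value was used, but the choice was made with earlier results of these data known. RNA was sequenced from 22 tumours grown from H2110, a human lung adenocarcinoma cell line, with dosing by mouth on 3 days once tumours measured about 300 mm³. The series, by its title, concerns RIT1, a RAS-related GTPase, as a driver and drug target in this cancer. Of the tumours, 4 received RMC-7977 at 10 mg/kg, 4 received RMC-4550 at 30 mg/kg, 4 received Trametinib at 0.3 mg/kg, 4 received Cobimetinib at 3 mg/kg and 6 received Vehicle. The labels give all of them the genotype WT, and all come from 1 cell line grown in a host whose species is not given in the sources used here. RMC-7977 inhibits active RAS proteins, RMC-4550 inhibits the tyrosine phosphatase SHP2, and Trametinib and Cobimetinib inhibit the kinases MEK1 and MEK2. Doses differ between the compounds, so each difference between drugs holds at these doses. Nothing says that the tumours of a group grew in separate animals, so the p-values reflect only how these samples varied, and part of that spread may be technical.

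MAP kinase phosphatases remove phosphate from both the threonine and the tyrosine of the activation loop of ERK, JNK and p38, which switches these kinases off. Several of their genes are themselves switched on by the kinases they inactivate, which makes them negative feedback regulators, and the level of DUSP6 mRNA is widely used as a readout of ERK activity in tumour cells. The family is grouped by location and substrate. DUSP1, DUSP2, DUSP4 and DUSP5 are nuclear and inducible, DUSP6, DUSP7 and DUSP9 are cytoplasmic and prefer ERK, and DUSP8, DUSP10 and DUSP16 prefer JNK and p38.

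The sequence upstream of the RNA start is shown for DUSP6, the member with the largest fold changes against Vehicle. It is also shown for DUSP1 and DUSP8, which among the members searched were those whose windows held the cyclic AMP response element. The 250 bases before the start are printed from RefSeq (GRCh38.p14), 5′ to 3′ on the strand of the gene, with capitals on every TGACG, the half-site of the cyclic AMP response element, on either strand. They lie at chr12:89352502-89352751, chr5:172771196-172771445 and chr11:1572272-1572521, all on the minus strand. The DUSP6 start in RefSeq lies inside the span that the count table gives for this gene.
DUSP6: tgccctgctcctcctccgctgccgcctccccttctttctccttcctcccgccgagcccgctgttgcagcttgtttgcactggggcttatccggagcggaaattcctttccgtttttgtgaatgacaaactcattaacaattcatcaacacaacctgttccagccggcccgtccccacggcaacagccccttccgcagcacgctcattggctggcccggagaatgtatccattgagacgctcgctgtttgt
DUSP1: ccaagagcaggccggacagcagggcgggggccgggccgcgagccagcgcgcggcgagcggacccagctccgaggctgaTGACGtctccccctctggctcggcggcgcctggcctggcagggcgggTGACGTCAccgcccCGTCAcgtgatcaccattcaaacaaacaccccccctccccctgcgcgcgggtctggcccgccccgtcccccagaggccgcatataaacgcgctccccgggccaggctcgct
DUSP8: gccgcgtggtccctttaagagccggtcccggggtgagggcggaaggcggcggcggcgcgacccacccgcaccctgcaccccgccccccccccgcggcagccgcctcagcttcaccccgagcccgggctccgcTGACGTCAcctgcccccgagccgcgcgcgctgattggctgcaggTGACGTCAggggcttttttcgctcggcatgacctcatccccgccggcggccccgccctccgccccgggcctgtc
The full element TGACGTCA, which is its own reverse complement and holds a half-site on each strand, occurred 1 time upstream of DUSP1 and 2 times upstream of DUSP8, and in 1.65% of 35114 promoters of this length. The half-site TGACG had 4 matches over both strands upstream of DUSP1, and it occurred in 21.2% of promoters. It was absent from the window of DUSP6, and equally from those of DUSP7, DUSP9, DUSP10 and DUSP16, which did not pass the test against Vehicle with any drug, and of DUSP2, which had too few counts to be tested. Its absence was therefore shared by a member that passed and members that did not. Windows of 8 of the 10 members were searched. DUSP4, which passed with RMC-7977, was left out of the search, and DUSP5 had no entry among the promoters used. In none of those 8 did the 250 bases hold CCGGAA, a strict form of the site for ETS factors, which 14.5% of promoters held on either strand. The shorter core GGAA was not searched for, and the window printed for DUSP6 holds it. TGANTCA, the AP-1 site, occurred in 6.57% of promoters and the CArG box in 1.16%, and neither matched in those 8. Such matches describe the letters of these windows only.

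DUSP1 was the most abundant member per unit of gene length. Levels are given as CPM, counts per 1000000 counts with library sizes scaled by TMM, and for comparisons between genes as CPM per kilobase of gene length. On the second scale DUSP1 averaged 140 ± 26.7 in RMC-7977 tumours, 219 ± 20.3 in RMC-4550 tumours, 218 ± 63.4 in Trametinib tumours, 293 ± 50.7 in Cobimetinib tumours and 198 ± 54.1 in Vehicle tumours (SD, 4 tumours per drug and 6 on Vehicle). DUSP4 and DUSP16 followed, with 57.6 ± 8.86 and 23.4 ± 3.34 CPM per kilobase under Vehicle, and then DUSP5 with 11.1 ± 3.29. The next 5 members, DUSP6, DUSP10, DUSP9, DUSP7 and DUSP8, lay close together at 3.99, 2.76, 2.76, 2.29 and 2.17 CPM per kilobase under Vehicle, and their ranges over the 6 tumours overlapped, while DUSP1, DUSP4, DUSP16 and DUSP5 did not overlap with each other there. DUSP2, a nuclear phosphatase known mainly from immune cells, had 0 to 5 counts per tumour and 26 counts in all. It was at 0 in 10 of the 22 tumours and had too few counts to be tested, so 9 of the 10 members stood among the 17652 genes tested.

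**Figure D1:**
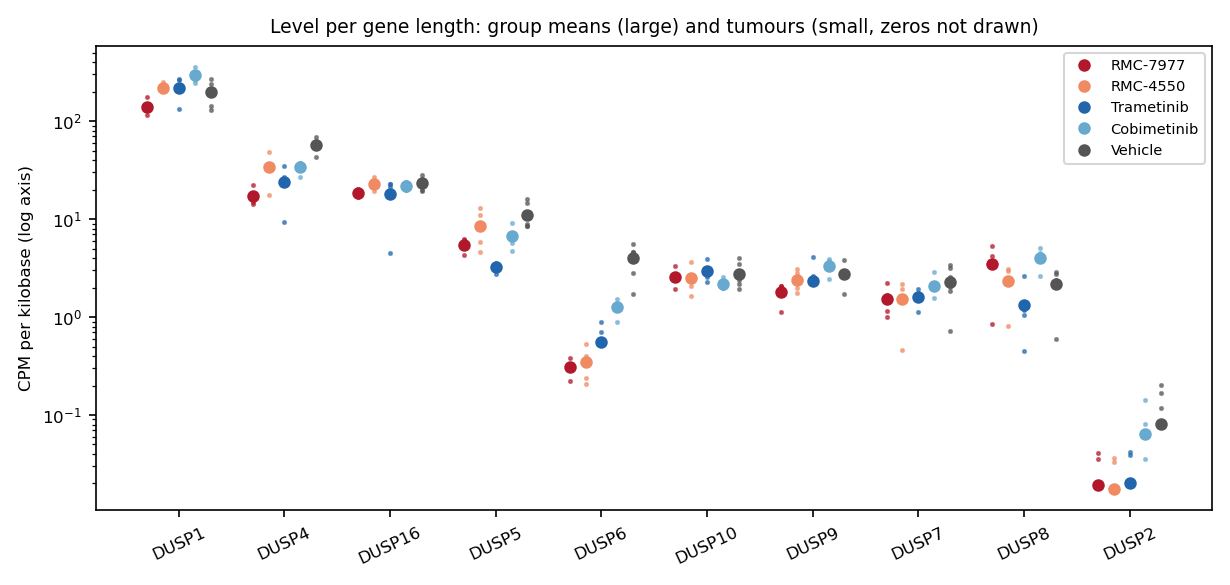
Level of each member in CPM per kilobase of gene length on a log axis, with large points for group means and small points for tumours. By group mean DUSP1 lies above all other members in every group and DUSP2 below all others, and DUSP6 has its highest group mean under Vehicle, at 3.99 CPM per kilobase.

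Total counts per tumour lay between 7761987, in a Trametinib tumour, and 17265754, in a Vehicle tumour. Trametinib replicate 4 stood apart, with 13.9% of the 5301 genes that averaged 2 to 20 CPM at 0, against at most 1.00% in every other tumour. The zeros of Trametinib replicate 4 in DUSP6 and DUSP9 allow up to 0.480 CPM by counting error alone, and many genes of a like level were at 0 with them. RMC-7977 replicate 3, RMC-4550 replicate 1 and Vehicle replicate 1 also stood apart, by few low counts or by a low correlation with other tumours, and calls of members that change without these 4 libraries are given both ways. EPCAM, KRT7 and KRT8, keratin and adhesion genes of epithelium, were high in all 22 tumours (EPCAM at 290 to 518 CPM). The lung differentiation markers NKX2-1, NAPSA and SFTPC averaged 4.15, 1.32 and 0.0881 CPM, and SFTPC was near 0 in every tumour. The summed 8 lymphocyte markers came to 0.208 to 0.634 CPM under RMC-7977, 0.163 to 4.96 under Trametinib and 0.0884 to 0.823 under Vehicle. The medians were 0.446, 0.328 and 0.424 CPM in this order, so the upper end under Trametinib lay far above the median of that group. In bulk RNA, fewer cells of a type and less RNA per cell cannot be told apart.

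DUSP6 and DUSP4 RNA was lower under RMC-7977 than under Vehicle, and DUSP6 RNA was lower under RMC-4550 than under Vehicle. No other member passed the test against Vehicle under any drug. A gene passed when its adjusted p in edgeR's quasi-likelihood test was under 0.05 after Benjamini-Hochberg adjustment over all 17652 genes. With RMC-7977, 2 of the 9 tested members were lower and 0 were higher, where 0.448% of all tested genes were lower and 0.3% were higher. With RMC-4550, 1 of the 9 was lower, where 0.0113% of all genes, 2 in number, were lower. With Trametinib and with Cobimetinib 0 of the 9 members passed, and 0% of all genes did. At an unadjusted p under 0.05, 3 members were lower with Trametinib against 7.17% of all genes, and 3 were lower and 1 was higher with Cobimetinib against 2.31% and 0.986% of all genes. DESeq2, with its own filter and adjustment, called 3 members with RMC-7977 (DUSP4, DUSP5 and DUSP6), where it called 3.44% of all genes it tested, and 1 with RMC-4550 (DUSP6), where it called 0.178%. It called 3 members with Trametinib (DUSP4, DUSP5 and DUSP6), where it called 1.96% of all genes, and 0 with Cobimetinib, where it called 0.00252%. Without the 4 libraries that stood apart, edgeR called 3 members with RMC-7977 against 6.38% of all genes, 1 with RMC-4550 against 0.0619%, 4 with Trametinib against 15.1% and 1 with Cobimetinib against 0.045%. The median log2 fold change over the 9 members was −0.59 with RMC-7977, −0.19 with RMC-4550, −0.53 with Trametinib and −0.13 with Cobimetinib, where the median over all tested genes lay between −0.01 and 0 in each. All 4 comparisons share the same 6 Vehicle tumours.

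**Figure D2:**
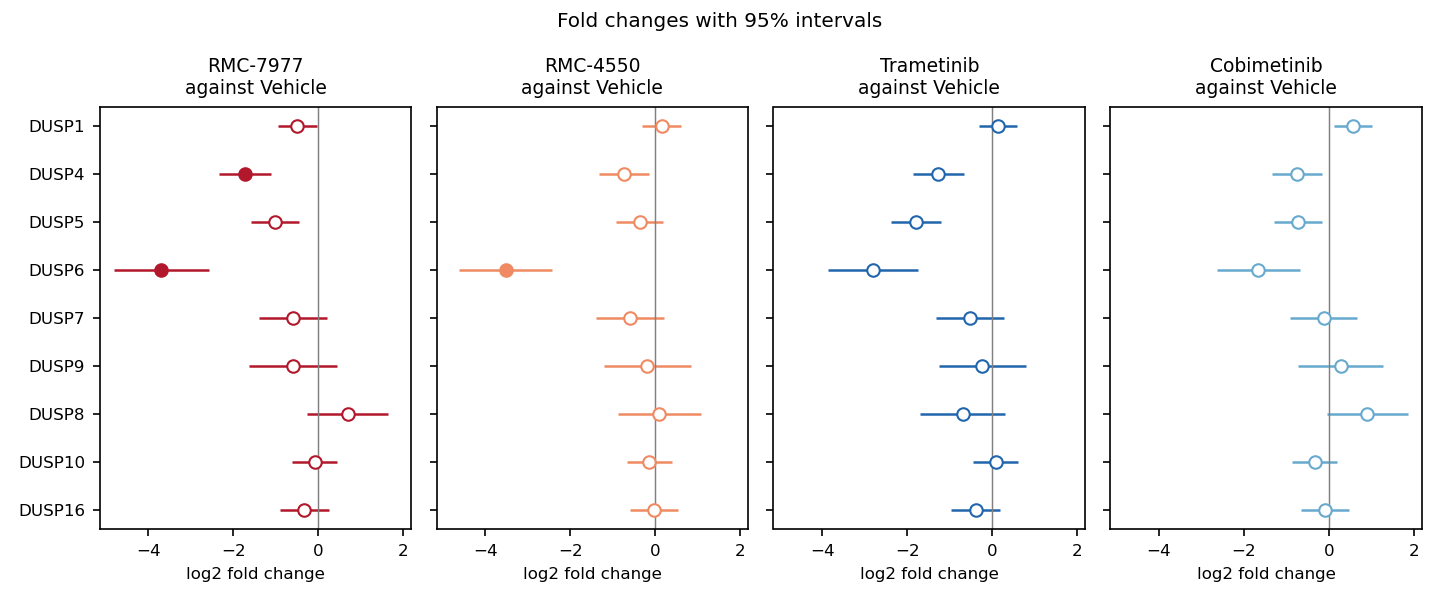
Log2 fold change of each tested member against Vehicle with its 95% interval, 1 panel per drug and filled points for an adjusted p under 0.05 (edgeR). DUSP6 is filled for RMC-7977 (−3.69) and RMC-4550 (−3.52) and DUSP4 for RMC-7977 (−1.73), and the interval of DUSP6 lies below 0 in all 4 panels.

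DUSP6 (ENSG00000139318, hg38 chromosome 12, 89347232 to 89353271) encodes the cytoplasmic phosphatase most selective for ERK. The 4 tumours on RMC-7977 had 1.43, 1.03, 1.79 and 1.45 CPM. The 4 on RMC-4550 had 1.12, 1.87, 0.958 and 2.46 CPM. The 4 on Trametinib had 2.79, 3.28, 4.15 and 0 CPM. With RMC-7977 and RMC-4550 every tumour lay under 2.5 CPM, and the 0 under Trametinib belongs to the library in which many genes were at 0. The 4 tumours on Cobimetinib had 5.53, 6.50, 4.08 and 7.15 CPM. The 6 on Vehicle had a lowest value of 8.05, a median of 21.2 and a highest of 25.8 CPM. All 16 treated tumours therefore lay below all 6 Vehicle tumours, and Cobimetinib tumours came nearest to them. Within Vehicle, replicate 2 was the lowest tumour.

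The log2 fold change of DUSP6 was −3.69 ± 0.54 (SE) with RMC-7977 (edgeR adjusted p = 0.00099), from means of 1.42 ± 0.309 CPM under the drug and 18.5 ± 6.59 under Vehicle. It was −3.52 ± 0.53 with RMC-4550 (edgeR adjusted p = 0.0191), whose mean was 1.60 ± 0.697 CPM. This second call rests on single tumours, as the edgeR adjusted p was 0.143 without RMC-4550 replicate 1, 0.132 without RMC-4550 replicate 3 and 0.071 without Vehicle replicate 5, while the log2 fold change stayed between −3.81 and −3.35 over the 30 alternatives without a block, of which 27 kept the call. With the replicate number as a block the edgeR adjusted p for RMC-4550 was 0.0378, and with the block and a correction for GC content it was 0.0516. Trametinib gave −2.80 ± 0.51 with an edgeR adjusted p of 0.0663, on means of 2.56 ± 1.79 CPM under the drug. Without Trametinib replicate 4 its mean was 3.41 ± 0.691 CPM over 3 tumours, the log2 fold change was −2.47 and the edgeR adjusted p was 0.0131. Cobimetinib gave −1.67 ± 0.47 (95% interval −2.64 to −0.69), with a mean of 5.82 ± 1.33 CPM, an unadjusted p of 0.00181 and an edgeR adjusted p of 0.912. Without the 4 libraries that stood apart the adjusted p of DUSP6 was 0.0344 with Cobimetinib, at a log2 fold change of −1.63, and 0.00245 with Trametinib, at −2.42 (edgeR).

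DUSP4 (ENSG00000120875, hg38 chromosome 8, 29333064 to 29350668) encodes a nuclear phosphatase of ERK, JNK and p38 whose gene is induced by ERK signalling. It had 104, 162, 109 and 128 CPM in the tumours on RMC-7977. It had 128, 352, 256 and 261 CPM on RMC-4550, where replicate 1, one of the libraries that stood apart, was the lowest. It had 178, 194, 254 and 68.0 CPM on Trametinib. On Trametinib too the lowest tumour was the library that stood apart, replicate 4. It had 274, 271, 193 and 259 CPM on Cobimetinib. The 6 Vehicle tumours ranged from 310 to 500 CPM, with a median of 421. All tumours on RMC-7977, Trametinib and Cobimetinib lay below all Vehicle tumours, and on RMC-4550 3 of 4 did.

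With RMC-7977 the log2 fold change of DUSP4 was −1.73 ± 0.29 (edgeR adjusted p = 0.00484), on means of 126 ± 26.5 CPM under the drug and 418 ± 64.3 under Vehicle. It stayed past the threshold when any single tumour was left out. With Trametinib the change was −1.27 ± 0.29 (edgeR adjusted p = 0.0819) on a mean of 173 ± 77.4 CPM, and without the 4 libraries that stood apart it was −1.10 with an edgeR adjusted p of 0.00272. RMC-4550 gave −0.74 ± 0.28 and Cobimetinib −0.75 ± 0.28, on means of 250 ± 92.0 and 249 ± 37.9 CPM, with unadjusted p of 0.0151 and 0.0149 and edgeR adjusted p of 0.985 and 1.

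DUSP5 (ENSG00000138166, hg38 chromosome 10, 110497838 to 110511544) encodes a nuclear phosphatase that acts on ERK alone. It had 16.2, 15.8, 11.2 and 14.1 CPM on RMC-7977 and 12.0, 33.9, 15.2 and 28.96 CPM on RMC-4550. On Trametinib it had 8.59, 8.69, 7.16 and 9.28 CPM, the narrowest range of the 5 groups. On Cobimetinib it had 14.9, 23.7, 12.4 and 18.9 CPM, and on Vehicle 22.1 to 41.8 with a median of 25.4 CPM. All tumours on RMC-7977 and on Trametinib lay below all Vehicle tumours, while groups overlapped for RMC-4550 and Cobimetinib. The log2 fold change was −1.79 ± 0.29 with Trametinib, whose edgeR adjusted p of 0.0504 was just over the threshold, on means of 8.43 ± 0.897 CPM under the drug and 29.1 ± 8.59 under Vehicle. It was −1.02 ± 0.28 with RMC-7977 (edgeR adjusted p = 0.0851), −0.37 ± 0.27 with RMC-4550 and −0.74 ± 0.27 with Cobimetinib. Of 30 alternatives without a block, 12 called DUSP5 with Trametinib and 3 with RMC-7977, among them DESeq2 for both drugs and, for RMC-7977, the fit without Trametinib replicate 4 (edgeR adjusted p = 0.045). The edgeR adjusted p of DUSP5 without the 4 libraries that stood apart was 0.0301 with RMC-7977 and 0.00245 with Trametinib. Trametinib thus had the lowest mean of DUSP5, and RMC-7977 the lowest means of DUSP6 and DUSP4. DUSP5P1, a processed pseudogene of DUSP5 on chromosome 1, drew 628 counts over all tumours against 5693 for DUSP5 itself. How reads that fit both were counted is not given in the sources used here, so the level of DUSP5 is uncertain to that extent. DUSP5P1 averaged 1.39 ± 0.991 CPM on Trametinib and 1.69 ± 0.426 on Vehicle.

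DUSP1 (ENSG00000120129, hg38 chromosome 5, 172768090 to 172771195) encodes a nuclear phosphatase of all 3 kinase classes that is induced by stress and growth factors. It had 265, 235, 272 and 360 CPM on RMC-7977. It had 431, 503, 413 and 422 CPM on RMC-4550 and 549, 411, 528 and 270 CPM on Trametinib. On Cobimetinib it had 498, 728, 530 and 609 CPM, and on Vehicle 264 to 547 with a median of 409 CPM. Every drug group overlapped with Vehicle. The log2 fold change was −0.50 ± 0.22 with RMC-7977 (unadjusted p = 0.036, edgeR adjusted p = 0.422), 0.15 ± 0.22 with RMC-4550, 0.14 ± 0.22 with Trametinib and 0.57 ± 0.22 with Cobimetinib (unadjusted p = 0.0157, edgeR adjusted p = 1). Its 95% interval against Vehicle was −0.30 to 0.60 with RMC-4550 and −0.31 to 0.59 with Trametinib, so a change of the size seen for DUSP6 lay outside both.

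**Figure D3:**
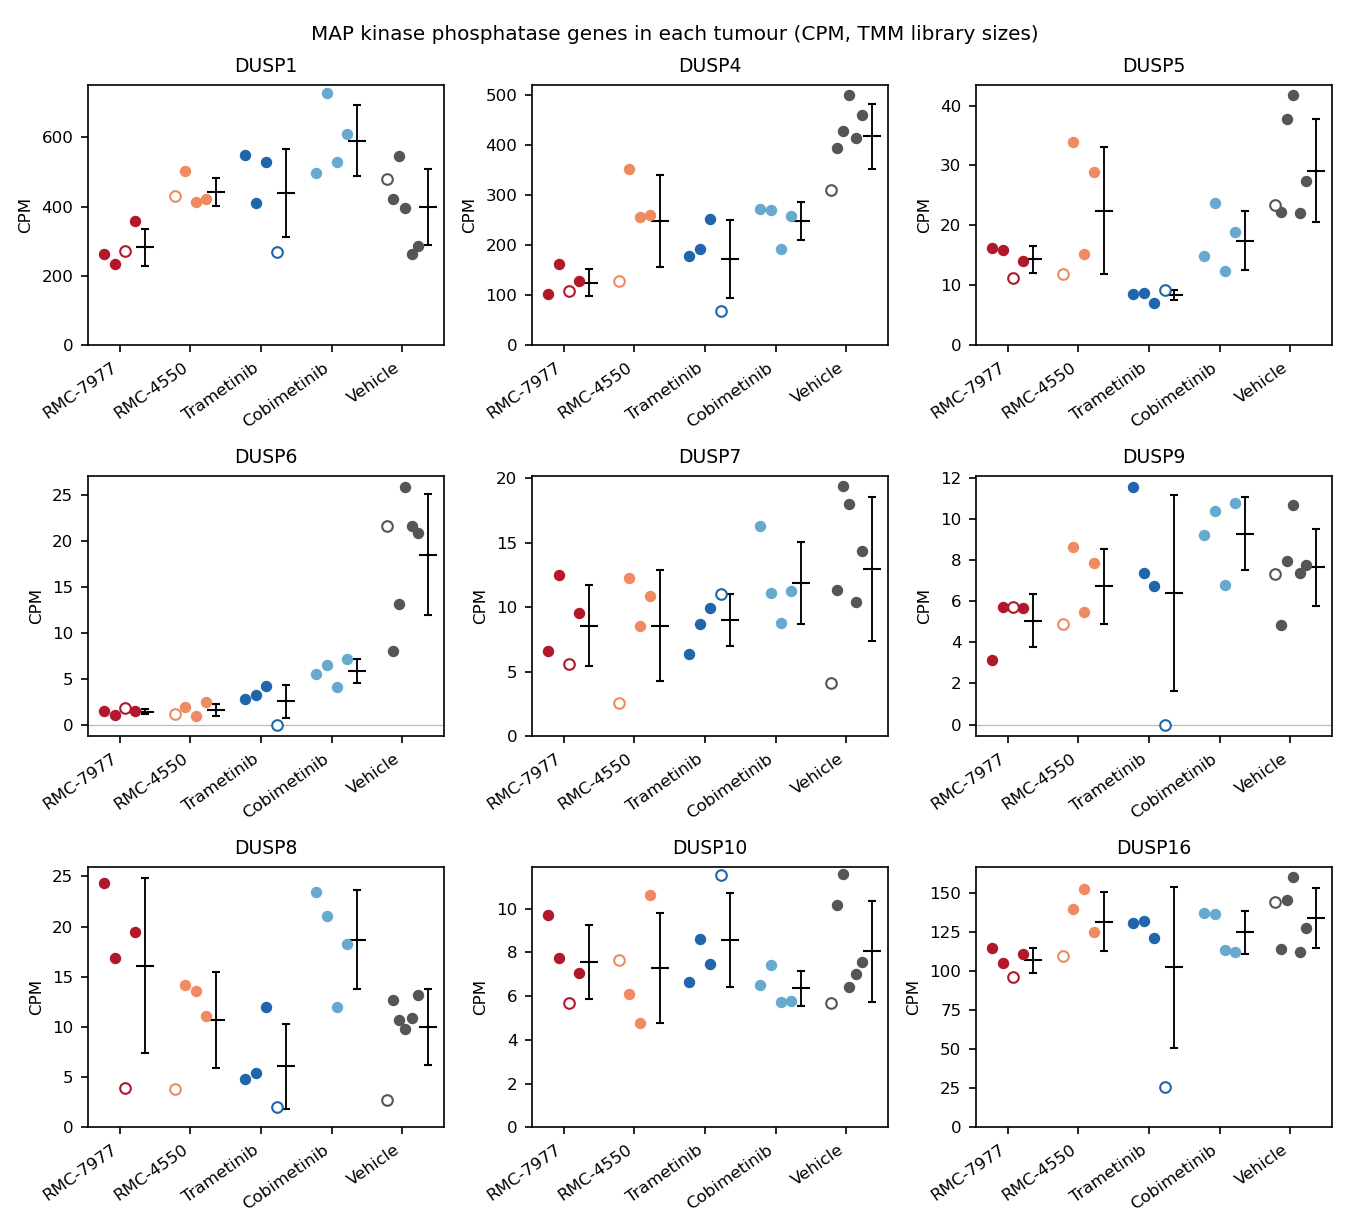
CPM of the 9 tested members in each tumour, with black bars for the group mean and SD and open points for the 4 libraries that stood apart. All DUSP6 points under the 4 drugs lie below the lowest Vehicle point of 8.05 CPM, and the open Trametinib point is the lowest or highest of its group in every panel.

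The other members that prefer ERK did not pass the test with all tumours. DUSP7 (ENSG00000164086, chromosome 3, 52048919 to 52056550) ranged from 5.61 to 12.5 CPM on RMC-7977, 2.58 to 12.3 on RMC-4550, 6.40 to 11.04 on Trametinib, 8.77 to 16.3 on Cobimetinib and 4.11 to 19.4 on Vehicle. Each drug overlapped with Vehicle, and its log2 fold changes were −0.59 ± 0.38, −0.59 ± 0.38, −0.53 ± 0.38 and −0.13 ± 0.38 in the same order of drugs. DUSP7 passed with Trametinib when the 4 libraries that stood apart were left out, at a log2 fold change of −0.84 (edgeR adjusted p = 0.0332), the only one of 30 alternatives without a block that called it. DUSP9 (ENSG00000130829, chromosome X, 153642492 to 153651326), whose mouse counterpart is needed in the placenta, ranged from 3.15 to 5.70 CPM on RMC-7977, 4.90 to 8.62 on RMC-4550, 0 to 11.5 on Trametinib, 6.80 to 10.8 on Cobimetinib and 4.83 to 10.7 on Vehicle. Its log2 fold changes ran from −0.60 ± 0.50 with RMC-7977 to 0.28 ± 0.48 with Cobimetinib, none past the threshold. Without Trametinib replicate 4, where it was at 0, its log2 fold change with Trametinib was 0.12, against −0.23 with all tumours.

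The JNK- and p38-directed members did not pass either. DUSP8 (ENSG00000184545, chromosome 11, 1554044 to 1571920) had 24.3, 16.9, 3.91 and 19.4 CPM on RMC-7977 and 3.79, 14.2, 13.6 and 11.1 CPM on RMC-4550. It had 4.82, 5.41, 12.1 and 2.08 CPM on Trametinib and 23.4, 21.1, 12.0 and 18.2 CPM on Cobimetinib. The Vehicle tumours ranged from 2.74 to 13.2 CPM with a median of 10.8. The lowest tumour on RMC-7977, RMC-4550, Trametinib and Vehicle was in each case the library of that group that stood apart. Of the other tumours, 3 on RMC-7977, 2 on RMC-4550 and 3 on Cobimetinib lay above all Vehicle tumours. The log2 fold change was 0.69 ± 0.46 with RMC-7977, 0.09 ± 0.47 with RMC-4550, −0.70 ± 0.49 with Trametinib and 0.90 ± 0.46 with Cobimetinib (unadjusted p = 0.0637, edgeR adjusted p = 1). DUSP8 reads are also uncertain, since its processed pseudogene DUSP8P5 drew 1441 counts against 3565 for DUSP8, and the antisense gene KRTAP5-AS1 in the same place drew 533. DUSP8P5 averaged 5.61 ± 1.42 CPM on RMC-7977, 3.57 ± 2.40 on Trametinib, 6.04 ± 1.54 on Cobimetinib and 4.56 ± 1.63 on Vehicle, and it did not pass the test under any drug. DUSP8 has a GC content of 0.646, and libraries differed in how their deviation from the gene means ranked with GC content. That rank correlation was −0.424 in RMC-7977 replicate 3, −0.584 in RMC-4550 replicate 1 and −0.538 in Vehicle replicate 1. It was −0.484, −0.413, 0.0539 and −0.102 in the Trametinib tumours, and 0.307 to 0.426 in the other Vehicle tumours. Its part in the DUSP8 values was not tested.

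DUSP10 (ENSG00000143507, chromosome 1, 221701424 to 221742176), a phosphatase of JNK and p38, varied least among the tested members, with an SD of 0.35 log2 units over the 22 tumours. It ranged from 5.70 to 9.72 CPM on RMC-7977, 4.79 to 10.6 on RMC-4550, 6.63 to 11.5 on Trametinib, 5.71 to 7.43 on Cobimetinib and 5.67 to 11.6 on Vehicle, and its log2 fold changes lay between −0.34 and 0.08. DUSP16 (ENSG00000111266, chromosome 12, 12474210 to 12562383), which acts mainly on JNK, averaged 107 ± 8.04 CPM on RMC-7977, 132 ± 18.6 on RMC-4550, 102 ± 51.4 on Trametinib, 125 ± 13.8 on Cobimetinib and 134 ± 19.1 on Vehicle. Its 3 ordinary Trametinib libraries had 121 to 132 CPM, and replicate 4 had 25.6.

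Counting tumours that lay below all Vehicle tumours gives the same members a description that needs no model. With RMC-7977, all 4 tumours lay below for 3 of the 9 members (DUSP4, DUSP5 and DUSP6), where 1.9% of all tested genes did so. The same held for 1 member with RMC-4550 (DUSP6; 0.465% of genes), 3 with Trametinib (DUSP4, DUSP5 and DUSP6; 0.629%) and 2 with Cobimetinib (DUSP4 and DUSP6; 0.799%).

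The drugs were then compared with each other. In 6 pairs, 0 of the 9 members passed edgeR's adjusted threshold, where 0.0906% of all genes passed for RMC-7977 against RMC-4550, 0.408% for RMC-7977 against Trametinib, 0.278% for RMC-7977 against Cobimetinib, 0.0283% for RMC-4550 against Cobimetinib and 0% for RMC-4550 against Trametinib and Trametinib against Cobimetinib. At an unadjusted p under 0.05 the members numbered 3, 3, 3, 1, 1 and 3 in this order, where 7.39%, 18.2%, 7.45%, 6.2%, 12.3% and 16.7% of all genes did so. DESeq2 called 3 members for RMC-7977 against Cobimetinib, where it called 1.99% of all genes it tested, 1 for RMC-4550 against Cobimetinib (0.801% of genes) and 1 for RMC-4550 against Trametinib (0.945%). It called 0 for RMC-7977 against RMC-4550 (1.47% of genes), RMC-7977 against Trametinib (4.29%) and Trametinib against Cobimetinib (0.667%). Without the 4 libraries that stood apart, edgeR called 1 member for RMC-7977 against RMC-4550 (1.08% of all genes), 3 for RMC-7977 against Trametinib (5.3%), 3 for RMC-7977 against Cobimetinib (3.79%), 1 for RMC-4550 against Trametinib (0.36%), 1 for RMC-4550 against Cobimetinib (0.901%) and 2 for Trametinib against Cobimetinib (3.02%).

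Between RMC-7977 and Cobimetinib, all 4 tumours on RMC-7977 lay below all 4 on Cobimetinib for DUSP1, DUSP4, DUSP6 and DUSP9, where 4.73% of all genes did so. The log2 difference was −2.02 ± 0.54 for DUSP6 (edgeR adjusted p = 0.136), −1.06 ± 0.24 for DUSP1 (0.0624 by the same test) and −0.99 ± 0.31 for DUSP4 (0.243). Without Trametinib replicate 4, which enters the shared fit, the edgeR adjusted p for these 3 genes was 0.00517, 0.00957 and 0.0442, and without the 4 libraries that stood apart it was 0.00322, 0.00852 and 0.00503. All RMC-4550 tumours also lay below all Cobimetinib tumours for DUSP6, as 3.9% of all genes did, with a log2 difference of −1.85 ± 0.53 (edgeR adjusted p = 0.295). Without Trametinib replicate 4 that p was 0.0174, and without the 4 libraries 0.0281. Between RMC-7977 and RMC-4550, all 4 RMC-7977 tumours lay below all 4 RMC-4550 tumours for DUSP1 alone, where 4.21% of all genes did so, with a log2 difference of −0.64 ± 0.24 (edgeR adjusted p = 0.453). The smallest p of this pair was that of DUSP4, with a log2 difference of −0.99 ± 0.31 (unadjusted p = 0.00378, edgeR adjusted p = 0.285), and without the 4 libraries that stood apart it passed at −1.15 (edgeR adjusted p = 0.00448). DUSP5 had −0.65 ± 0.29 (edgeR adjusted p = 0.6246). DUSP6 tumours of these groups overlapped, with a log2 difference of −0.18 and a 95% interval of −1.31 to 0.96, so these tumours do not settle whether DUSP6 differed between the drugs.

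Between the MEK inhibitors, Trametinib and Cobimetinib, the unadjusted p was under 0.05 for DUSP5, DUSP6 and DUSP8. All 4 Trametinib tumours lay below all 4 Cobimetinib tumours for DUSP5, as 4.45% of all genes did, with a log2 difference of −1.05 ± 0.30 (95% interval −1.68 to −0.43, edgeR adjusted p = 0.183). For DUSP8 it was −1.60 ± 0.53 (adjusted p = 0.202 in edgeR), and for DUSP6 −1.13 ± 0.51 (0.276). Without the 4 libraries that stood apart DUSP5 and DUSP8 passed, with edgeR adjusted p of 0.0397 and 0.0174. That fit kept Trametinib replicates 1 and 2, whose rank correlations with GC content were −0.484 and −0.413. The part of GC content in the DUSP8 call was not tested. For DUSP5 all 4 RMC-4550 tumours lay above all 4 Trametinib tumours, as 2.26% of all genes did, with a log2 difference of 1.42 ± 0.30 (edgeR adjusted p = 0.138). It was 1.69 and passed without the 4 libraries (edgeR adjusted p = 0.0263).

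Between RMC-7977 and Trametinib, DUSP5 was the 1 tested member whose groups did not overlap, with all 4 RMC-7977 tumours above all 4 Trametinib tumours, where the groups did not overlap in either direction for 6.14% of all genes. Its log2 difference was 0.77 ± 0.30 (edgeR adjusted p = 0.185). That of DUSP8 was 1.38 ± 0.53 (edgeR adjusted p = 0.175) and that of DUSP1 −0.64 ± 0.24 (0.173 by the same test). Without the 4 libraries that stood apart DUSP8 passed at 1.44 (edgeR adjusted p = 0.0117), DUSP1 at −0.79 (0.0489) and DUSP4 at −0.66 (0.0456), and DUSP8 also passed without Trametinib replicate 3 (0.0427).

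**Figure D4:**
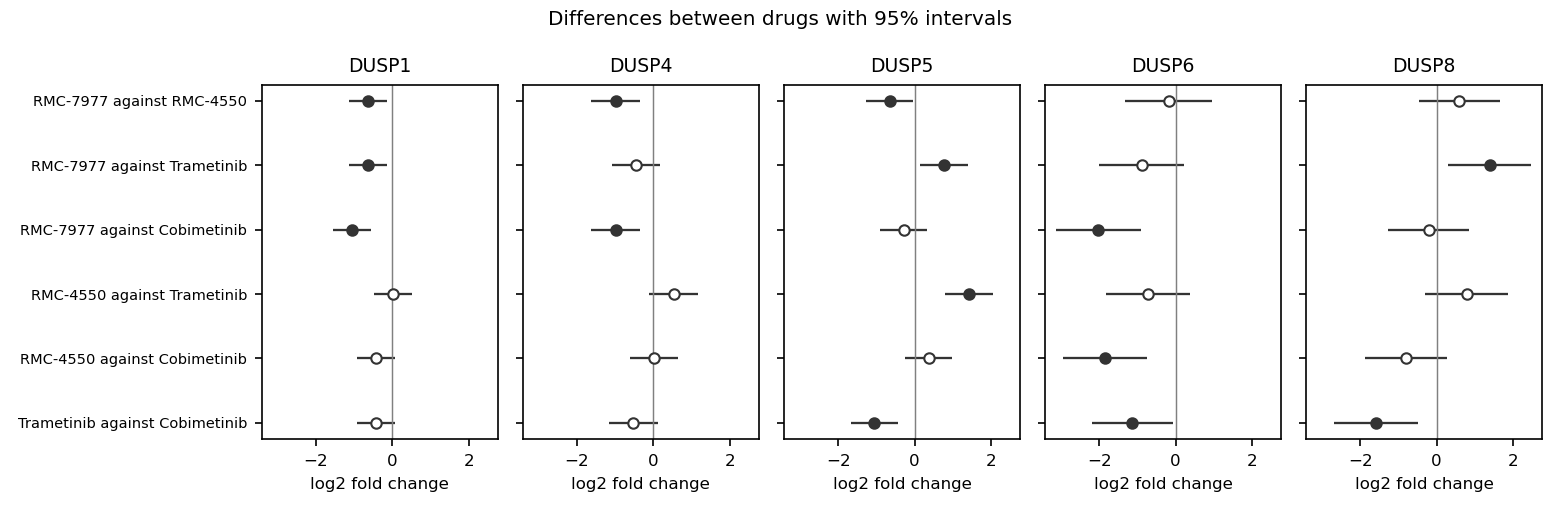
Log2 differences between drugs for 5 members with 95% intervals, the drug named first minus the drug named after it, filled where the unadjusted p was under 0.05 and none past the adjusted threshold in edgeR. The 6 comparisons share drug groups, and the widest gap is that of DUSP6 between RMC-7977 and Cobimetinib (−2.02).

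The family was also described by its makeup, for which no test was run. In shares of the summed CPM per kilobase of the 10 members, DUSP4 made up 9.19% ± 2.47 on RMC-7977, 11.5% ± 3.20 on RMC-4550, 8.49% ± 2.19 on Trametinib, 9.39% ± 1.49 on Cobimetinib and 19.6% ± 4.92 on Vehicle (SD over tumours). DUSP1 made up 72.9% ± 4.65, 74.7% ± 4.75, 80.7% ± 3.58 and 79.3% ± 2.88 on the 4 drugs in this order, and 64.2% ± 7.40 on Vehicle. The ERK-directed cytoplasmic group DUSP6, DUSP7 and DUSP9 summed to 3.64 ± 0.817 CPM per kilobase on RMC-7977, 4.28 ± 1.49 on RMC-4550, 4.46 ± 1.72 on Trametinib, 6.70 ± 1.22 on Cobimetinib and 9.04 ± 2.33 on Vehicle. DUSP8, DUSP10 and DUSP16 together summed to 24.7 ± 3.79, 27.8 ± 3.74, 22.2 ± 8.86 and 28.0 ± 3.58 CPM per kilobase on the drugs and 28.4 ± 3.11 on Vehicle. These shares are parts of 1 sum, so they cannot move independently of each other.

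Other genes of the pathway, from lists chosen like the members with earlier results known, gave the setting. Among 15 tested ERK-responsive genes outside the family, 8 were lower with RMC-7977, where 0.448% of all genes were lower. With the other drugs 0 passed, where 0.0113% of all genes were lower with RMC-4550 and 0% passed with Trametinib or Cobimetinib. The median log2 fold change was −1.15 with RMC-7977, −0.87 with RMC-4550, −0.63 with Trametinib and −0.34 with Cobimetinib. Of the 15, 14, 14, 14 and 13 had a negative log2 fold change in this order. The 4 with the smallest p under RMC-7977 were the ETS transcription factor genes ETV4 (−4.49 ± 0.58) and ETV5 (−2.71 ± 0.38), PHLDA1 (−2.83 ± 0.44) and SPRED1, a feedback inhibitor of RAS signalling (−1.15 ± 0.22), with edgeR adjusted p between 0.000326 and 0.0109. Of 18 kinases and adaptors of the ERK pathway, GAB1, an adaptor that binds SHP2, was higher with RMC-7977, with 36.1 ± 4.17 CPM on the drug and 20.1 ± 2.13 on Vehicle (log2 fold change 0.84 ± 0.19, edgeR adjusted p = 0.0274). With RMC-7977 0.3% of all genes were higher. No gene of this list passed with the other drugs. Of 12 tested MAP kinases, 11 other phosphatases that act on them, 19 other dual-specificity phosphatases and 15 genes of the JNK and p38 pathways, none passed in any comparison with Vehicle. MAPK3 (ERK1), a kinase that DUSP6 acts on, had a log2 fold change of 0.64 ± 0.20 with RMC-7977 (edgeR adjusted p = 0.162). The atypical phosphatases DUSP3, DUSP14 and DUSP22 had 0.25 ± 0.18, 0.41 ± 0.21 and 0.17 ± 0.13 with RMC-7977, none past the threshold.

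In 2 lists of markers for other cell types, 1 gene each passed with RMC-7977, both lower, where 0.448% of all genes were lower. Some other genes of these lists were near 0 over all tumours, with mean CPM of 0.413 for PTPRC, 0.0223 for CD68, 0.0662 for KDR and 0.196 for FLT1. Others were not, with mean CPM of 9.38 for CD14, 2.47 for CSF1R, 47.9 for EGFL7 and 56.05 for CLDN5. LAPTM5, of blood cells, averaged 0.395 ± 0.442 CPM on RMC-7977 and 5.40 ± 3.16 on Vehicle (log2 fold change −3.75 ± 0.66, edgeR adjusted p = 0.00591). It was 1 of 4 tested myeloid markers to pass. All 4 had a negative log2 fold change, with CD14 at −0.96 ± 0.36 (edgeR adjusted p = 0.289). The summed 10 myeloid markers were 6.96 to 10.7 CPM on RMC-7977 and 11.8 to 27.1 on Vehicle, with 3 of the 10 at 0 in all RMC-7977 tumours and 2 at 0 in all Vehicle tumours. PECAM1, of endothelium, averaged 9.42 ± 6.75 CPM on RMC-7977 and 30.8 ± 11.02 on Vehicle (−1.71 ± 0.36, edgeR adjusted p = 0.0235), as 1 of 6 tested endothelial markers. Of these 6, 5 had a negative log2 fold change, with EGFL7 at −0.15 ± 0.20 and CLDN5 at −1.305 ± 0.576, and VWF had 0.77 ± 0.71. The summed 8 endothelial markers were 70.0 to 110 CPM on RMC-7977 and 102 to 258 on Vehicle. Whether LAPTM5 and PECAM1 RNA came from tumour cells or from other cells was not tested. The part of other cells in the DUSP6 and DUSP4 results was not tested either.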

How the data were processed

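RNA-seq counts of 22 tumours were analysed. The deposited table holds the authors' raw read counts per gene, whole numbers in 1 column per tumour, and a gene length in bases (per the file headers), which was used for levels per kilobase. The submitters' processing notes name the build hg38 and, with no order, edgeR (3.22.5), DESeq2 (1.20.0), featureCounts (1.5.0-p3), HISAT2 (2.0.5) and fastp. Libraries were strand-specific, per the labels. How the counting used strand and reads that map to several places, and with which annotation, is not given in the sources used here.

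Counts were fitted in R (4.3.3) with edgeR (4.0.16). Genes were filtered by filterByExpr with a minimum of 10 counts, libraries were scaled by TMM, and 1 robust quasi-likelihood model with a mean per group was fitted to all 22 tumours. Each drug was compared with Vehicle and with each other drug, 10 comparisons, by 2-sided tests. Adjustment was by Benjamini-Hochberg over all 17652 genes in the fit, which hold 99.7% of counts. Library sizes for CPM were those of TMM, with a prior count of 2 before any log2. The depth gave 13 to 35 counts of DUSP6 per tumour on RMC-7977 and RMC-4550, and intervals and floors (3 counts) cover counting error only. No 2 tumours held identical counts.

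Groups came from the labels. The members, the gene lists and the tests were chosen with earlier results of these data known. All 10 members were named, with up to 4 genes past the threshold from each other list and, always, DUSP3, DUSP14, DUSP22 and MAPK3. A further gene named by this rule is not reported here. Genes most like a member were those with the smallest root mean square difference in centred log2 CPM. Tumours with the same replicate number deviated together from their group means in all 3 pairs of RMC-4550 and Vehicle (r from 0.17 to 0.711). An r over 0 was also found in all 3 pairs of Trametinib and Vehicle (0.136 to 0.202) and all 4 of RMC-7977 and Cobimetinib (0.0813 to 0.376). In every other comparison at least 1 pair had an r under 0. What the number marks is not stated in the labels. Alternatives were DESeq2 (1.42.0), RLE size factors, other filters on low counts, only the groups compared, a GC correction, the replicate block, and leaving out tumours. The model was tested on simulated data. Promoters came from RefSeq and GC content from GENCODE. Sequencing reads were not used here.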

Additional observations from a re-analysis of the deposited data

Results flagged for a closer look

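In 6 of the 45 sets of values formed by 9 members and 5 groups, 1 tumour lay far from the rest of its group, where chance gives about 1 in 20. Trametinib replicate 4 accounted for 3 of them, with 0 CPM of DUSP6, 0 CPM of DUSP9 and 25.6 CPM of DUSP16. DUSP8 in Vehicle replicate 1 was at 2.74 CPM, and that library also stood apart over all genes. DUSP4 in Cobimetinib replicate 3 was at 193 CPM, with the other 3 tumours at 259 to 274 CPM. DUSP9 in RMC-7977 replicate 1 was at 3.15 CPM, with the other 3 at 5.67 to 5.70 CPM. Neither of these last libraries stood apart over all genes.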

How the results depend on the processing

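Against Vehicle, the number of members called was 2 with RMC-7977, 1 with RMC-4550 and 0 with Trametinib and Cobimetinib. Leaving out each tumour in turn gave 2 to 3 with RMC-7977, 0 to 1 with RMC-4550, 0 to 3 with Trametinib and 0 with Cobimetinib. Trametinib gave 3 calls under DESeq2 and with a mean CPM of at least 1, 1 with no filter, 1 without the 2 libraries that had few low counts and 4, DUSP7 among them, without the 4 that stood apart, where 15.1% of all genes passed. It gave 3 without Trametinib replicate 1, 2 or 3 or Vehicle replicate 1, 2 without Vehicle replicate 2, and 1 without Trametinib replicate 4, Vehicle replicate 6 or RMC-4550 replicate 1 or 2. Cobimetinib gave 1 without the 4 libraries. Among these alternatives, the share of all genes called is given here only for DESeq2 and for the fit without the 4 libraries. The counts under the others are therefore not read as a result about the members. The cause was not tested.

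With the replicate block, which keeps only tumours whose number occurs in both groups, RMC-7977 gave 0 calls, with and without the GC correction, against 2 without the block, and no gene of the table passed. There, with the block alone, the log2 fold change was −3.25 for DUSP6 (edgeR adjusted p = 0.876) and −1.62 for DUSP4 (0.9998 by the same test). Tumours of RMC-7977 and Vehicle with the same number had r of −0.230, 0.031 and −0.164. What the number marks is not stated in the labels. RMC-4550 gave 1 with the block and 0 with the block and the GC correction, and Trametinib and Cobimetinib gave 0 with the block. RMC-7977 against Cobimetinib gave 4 with the block, and 3 with the block and GC correction. In this comparison the r of tumours with the same number was over 0 in all 4 pairs, at 0.11, 0.0813, 0.376 and 0.142. RMC-4550 against Cobimetinib gave 1 with the block and GC correction. Except for RMC-7977 against Vehicle, the share of all genes called with the block is not given here. These counts are therefore not read as a result about the members.

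For pairs of drugs, all at 0 in the report, RMC-7977 against Cobimetinib gave 3 under DESeq2, 3 with only those groups, 1 with a mean CPM of at least 1, 1 under RLE, 2 without the 2 libraries, 3 without the 4 and 0 to 3 with 1 tumour left out (3 without Trametinib replicate 4, 1 without Vehicle replicate 6). RMC-4550 against Cobimetinib gave 1 under DESeq2, without the 2 and without the 4 libraries, and 0 to 1 with 1 tumour left out (1 without Trametinib replicate 4). RMC-4550 against Trametinib gave 1 under DESeq2 and without the 4. RMC-7977 against Trametinib gave 3 without the 4 and 0 to 1 with 1 tumour left out (1 without Trametinib replicate 3). RMC-7977 against RMC-4550 gave 1, and Trametinib against Cobimetinib 2, without the 4. Here too the share of all genes called is given only for DESeq2 and without the 4 libraries. DESeq2 moved the median log2 fold change of all genes to −0.15 for RMC-7977 against Trametinib, against 0.02 in edgeR.

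Of single members against Vehicle, 29 values over all settings turned their sign, all of them small and not called. With the block DUSP1 was −0.10 with RMC-4550, DUSP10 −0.24 and DUSP9 0.33 with Trametinib, and DUSP7 0.23 with Cobimetinib. With the block and GC correction these were −0.063, −0.30, 0.53 and 0.028, DUSP8 was 0.10 with Trametinib and DUSP9 0.039 with RMC-4550. With the GC correction alone DUSP9 was 0.19 with Trametinib. Without the 2 libraries DUSP10 was 0.0056 with RMC-7977 and −0.10 with Trametinib, and DUSP9 0.14 with Trametinib. Without the 4, DUSP10 was −0.19 and DUSP9 0.12 with Trametinib, and DUSP16 0.063 with RMC-4550. Leaving out 1 tumour gave −0.25 to 0.039 for DUSP10 with RMC-7977, −0.13 to 0.21 for DUSP10 and −0.68 to 0.12 for DUSP9 with Trametinib, −0.12 to 0.036 for DUSP16 and −0.10 to 0.35 for DUSP8 with RMC-4550, and −0.33 to 0.022 for DUSP7 with Cobimetinib. Between drugs, no difference with an unadjusted p under 0.05 turned its sign, and that of DUSP6 between RMC-7977 and RMC-4550, at −0.18, was 0.10 without RMC-4550 replicate 4. Low counts of DUSP6 under the drugs, 1 library with many zeros and 4 tumours per drug limit what could be called.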

Other observations

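The genes whose level followed DUSP4, DUSP5 and DUSP6 most closely over the 22 tumours were sought among 11042 protein-coding genes, by the root mean square difference in centred log2 CPM. For DUSP5, which had an SD of 0.72 log2 units, they were JUNB, a subunit of AP-1 (0.42), IRS2, an adaptor of insulin signalling (0.46), TRAF2 (0.48) and the transcription factor gene CEBPB (0.48), where the median gene was at 0.80. For DUSP4, with an SD of 0.78, they were NCS1 (0.40), OLFM2 (0.40), IGSF8 (0.41) and EPAS1, a hypoxia-inducible factor (0.41), where the median gene was at 0.83. For DUSP6, with an SD of 1.80, they were RASGEF1A (1.097), ETV4 (1.11), CYSRT1 (1.17) and LTBP2 (1.17), where the median gene was at 1.75. RASGEF1A and CYSRT1, like DUSP6, had 0 counts in Trametinib replicate 4, and ETV4 had 6. Of these 12 genes ETV4 alone passed the edgeR test against Vehicle, with RMC-7977 and with no other drug. JUNB had log2 fold changes of −1.20 ± 0.31 with RMC-7977, −0.75 ± 0.31 with RMC-4550, −1.53 ± 0.32 with Trametinib and −0.63 ± 0.30 with Cobimetinib. Its lowest value, like that of DUSP5, was the one with Trametinib. JUNB was picked for its likeness to DUSP5 over these same tumours, so this shared order is no separate result.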
